A study of Homo sapiens with 7 samples.

Results

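The transcriptome of SNU398 cells given the engineered peptide PEN-FFW was compared with that of cells given the native peptide PEN-WT, gene by gene. A gene entered when its normalized counts averaged 50 or more over the 4 RNA libraries, which 12578 of the 23710 genes in the table did (53.05%). SNU398 is an established human hepatocellular carcinoma cell line. The cells of every group received 30 µM of a peptide for 8 h, and the groups were PEN-FFW, PEN-WT, PEN-MUT and PEN (penetratin alone), with 1 RNA library each. The 3 chromatin samples of the series were not analysed here. With 1 library per peptide no test between peptides was possible, and each value below describes that pair of libraries.

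SALL4 is a zinc finger transcription factor of embryonic stem cells and fetal liver that is expressed again in part of the hepatocellular carcinomas. Its N-terminal end binds RBBP4, a histone-binding subunit of the nucleosome remodelling and deacetylase complex NuRD, through which SALL4 recruits histone deacetylases to repress genes. Penetratin is a cell-penetrating peptide derived from the Drosophila Antennapedia homeodomain. PEN-WT joins it to the native RBBP4-binding sequence of SALL4, PEN-MUT to a mutated form, and PEN-FFW to a form engineered for tighter binding to RBBP4.

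Values are given as the normalized counts that the authors deposited and as log2 differences, PEN-FFW minus PEN-WT. On the authors' scaling the median gene had 0.809 times its PEN-WT value in PEN-FFW, a log2 difference of -0.31, whereas PEN-MUT differed from PEN by 0.02 at the median gene. Unless said otherwise, every log2 difference of PEN-FFW minus PEN-WT below has its median of -0.31 subtracted. A gene printed with equal counts in PEN-FFW and PEN-WT thus has a difference of 0.31. Differences of any other pair have the median of that pair subtracted. The bracketed range after a difference is its 95% interval from the counting of reads (exact conditional binomial), and it holds no culture-to-culture variation. The reads recovered from the table numbered 27347377 in PEN-FFW, 40717633 in PEN-WT, 32043544 in PEN-MUT and 37784093 in PEN, and the 10 most abundant genes took 5.37% to 5.72% of them. The median half-width of the interval was 0.45 for genes with a mean count of 50 to 100, 0.17 for 200 to 1000, and 0.08 for 1000 to 10000. No library could be checked against a second one of its kind, so differences in culture, RNA quality or library preparation cannot be told apart from those between the peptides.

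The larger differences were mostly upward in PEN-FFW. After the median was subtracted, 565 genes (4.49%) exceeded their PEN-WT level by 1.5-fold or more in PEN-FFW and 18 (0.143%) fell short of it by 1.5-fold or more. In RNA from a whole culture, fewer cells with a transcript and less of it per cell cannot be told apart. At 2-fold, 137 genes (1.09%) were higher and 2 (0.0159%) were lower. The balance depends on the centring: with the authors' scaling left as it is, 200 genes were higher and 320 lower at 1.5-fold, and 62 higher and 4 lower at 2-fold. Centred on genes of like mean count, 370 were higher and 63 lower at 1.5-fold. The pair PEN-MUT and PEN, which shares no library with the first, gave 41 genes (0.326%) higher and 60 (0.477%) lower at 1.5-fold, and 2 each way (0.0159%) at 2-fold. The standard deviation of the log2 difference over genes was 0.26 for PEN-FFW against PEN-WT and 0.17 for PEN-MUT against PEN. Across the 12578 genes the differences of both pairs had a Pearson correlation of -0.11, a description over genes that are not independent of each other.

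Most of the higher genes were low in abundance. Of the 565, 378 (66.9%) had a mean count under 200, against 15.6% of all tested genes, and 51 had a mean of at least 1000. Of the 565, 59 reached the mean of 50 only because of their PEN-FFW value, and 36 of these were among the 137. All 18 lower genes had a mean count under 200. The counting interval of each of the 565 and of each of the 18 left out 0, as did that of 5907 of all 12578 tested genes. The 565 and the 18 were chosen by size of difference on the same counts, so this gives no support. Just inside the threshold on the mean were PCDHB9, ETS1 and LRRTM3, with means of 50.02, 50.03 and 50.05, and just outside it were SFRP4, STARD13 and ARHGDIG, with means of 49.9, 49.9 and 49.8.

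**Figure D1:**
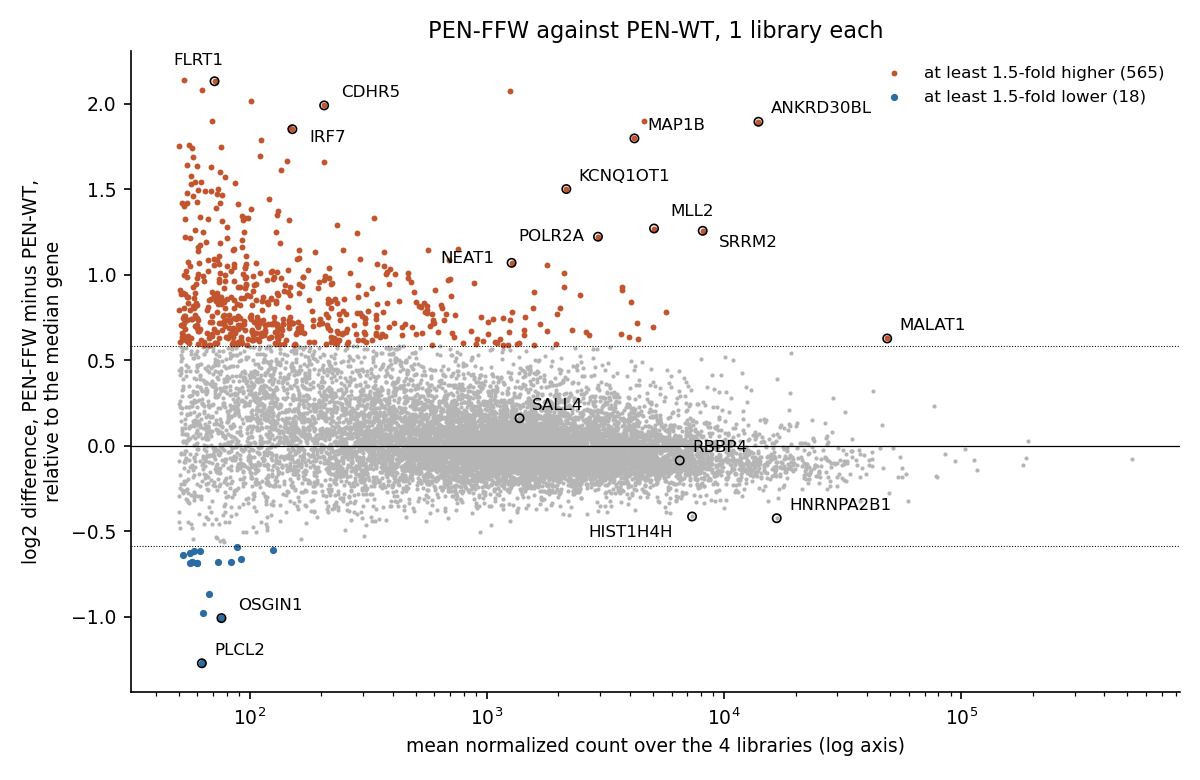
Each point is 1 of the 12578 genes, with its mean normalized count over the 4 libraries (horizontal, log axis) and its log2 difference PEN-FFW minus PEN-WT relative to the median gene (vertical). Dotted lines mark 1.5-fold, 565 genes lie above the upper line and 18 below the lower one, and the lower ones all have a mean count under 200.

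All 137 genes that were 2-fold higher in PEN-FFW than in PEN-WT had their highest level of the 4 libraries in PEN-FFW, each library set at its own median gene. The same held for 4411 of all 12578 tested genes. In 91 of these 137 (66.4%) the PEN-WT level was above both PEN-MUT and PEN, against 35.1% of all tested genes. The median of the 137 differences was 1.40 for PEN-FFW minus PEN and 0.16 for PEN-WT minus PEN, and it was 1.59 for PEN-FFW minus PEN-MUT and 0.33 for PEN-WT minus PEN-MUT. These pairs share libraries with the comparison that chose the genes, so they are given side by side and not as support. Among the 18 lower genes, PEN-FFW was the lowest library for 15, against 4432 of all 12578 tested genes. PEN-WT was above both PEN-MUT and PEN for 15 of the 18 (83.3%), against 35.1% of all tested genes. The 18 were chosen by a PEN-FFW value low against PEN-WT, so neither count is support.

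Genes were ranked by difference with small RNA and clone names left out. This passes over MIR663A and LOC284801, described further on, and the 12 highest of that ranking follow. Of the 12, ANP32A-IT1, FLRT1, DUOX1, RPS16P5 and ABRA reached the mean of 50 only because of their PEN-FFW value. FLRT1, a leucine-rich repeat adhesion protein (chr11:63803403-63886645, plus strand; positions of genes are in hg19), had 171 counts in PEN-FFW, against 48.1 in PEN-WT, 32 in PEN-MUT and 32.7 in PEN, a difference of 2.13 [1.71, 2.57]. DUOX1, a dual oxidase that makes hydrogen peroxide at the membrane, had 136 counts in PEN-FFW, against 39.6 in PEN-WT, 37 in PEN-MUT and 37.8 in PEN, a difference of 2.08 [1.61, 2.57]. DUOX1 was at similar levels in the 3 other libraries, whereas FLRT1 was higher in PEN-WT than in either control peptide. CDHR5, a protocadherin of intestinal and renal microvilli (chr11:616577-626078, minus strand), had 492 counts in PEN-FFW, against 153 in PEN-WT, 85 in PEN-MUT and 92.4 in PEN, a difference of 1.99 [1.75, 2.23]. For CDHR5 the PEN-WT library also stood above both control peptides. IRF7, the transcription factor that drives type I interferon genes, lies next to CDHR5 (chr11:612553-615983, minus strand). It had 338 counts in PEN-FFW, against 116 in PEN-WT, 64 in PEN-MUT and 86.5 in PEN, a difference of 1.85 [1.57, 2.14].

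IRF7 and CDHR5 lie 594 bases apart on the same strand. Of the genes around them, PHRF1 differed by 0.30 [0.24, 0.37] and DEAF1 by 0.17 [0.08, 0.27], and RASSF7 lay at -0.22 [-0.37, -0.08]. On the far side of RASSF7, LRRC56 and C11orf35, whose ends overlap, differed by 0.74 and 0.99. Of the 29 interferon-induced genes listed, 15 were tested, with a median of -0.01, and IRF7 was the 1 member at least 1.5-fold higher. IFIT5, an interferon-induced RNA-binding protein, had 154 counts in PEN-FFW, against 269 in PEN-WT, a difference of -0.50 [-0.77, -0.22]. A 1.5-fold higher gene was followed within 20000 bases by another such gene in 18 of 289 cases (6.23%), against 5.00% over all 6182 pairs of adjacent tested genes.

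ANKRD30BL had the highest difference in this ranking among genes with a mean of at least 1000, though MIR663A and LOC284801, outside the ranking, lay higher. This gene of the ankyrin repeat domain 30 family (chr2:132905164-133015542, minus strand) had 33678 counts in PEN-FFW, against 11185 in PEN-WT, 6088 in PEN-MUT and 4822 in PEN, a difference of 1.90 [1.87, 1.92]. All 4 libraries were far apart for it, and PEN-WT was above both control peptides. Genes of this family have close copies, so reads may have been split among them. MAP1B, a microtubule-associated protein of neurons (chr5:71403061-71505392, plus strand), had 7063 counts in PEN-FFW, against 2510 in PEN-WT, 4169 in PEN-MUT and 2982 in PEN, a difference of 1.80 [1.74, 1.86]. Unlike ANKRD30BL, MAP1B was lowest in PEN-WT, and PEN-MUT lay between.

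The other members of these 12 were of varied kinds. ANP32A-IT1, an intronic transcript, had 130 counts in PEN-FFW, against 36.5 in PEN-WT, 28 in PEN-MUT and 16.8 in PEN, the highest difference of the rule at 2.14 [1.66, 2.65]. FAM196A, now named INSYN2A and coding for a protein of inhibitory synapses, had 206 counts in PEN-FFW, against 62.9 in PEN-WT, and the non-coding LINC00645 had 210 in PEN-FFW and 75.3 in PEN-WT. PLAC4, a placental transcript on chromosome 21, had 294 counts in PEN-FFW and 100.1 in PEN-WT. ABRA, an actin-binding protein of striated muscle, had 104 counts in PEN-FFW and 38.0 in PEN-WT. RPS16P5, a processed pseudogene of a ribosomal protein gene whose reads may come from its parent, had 134 counts in PEN-FFW and 44.2 in PEN-WT. The differences of these 5 named after ANP32A-IT1 lay between 1.76 for ABRA and 2.02 for FAM196A.

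**Figure D2:**
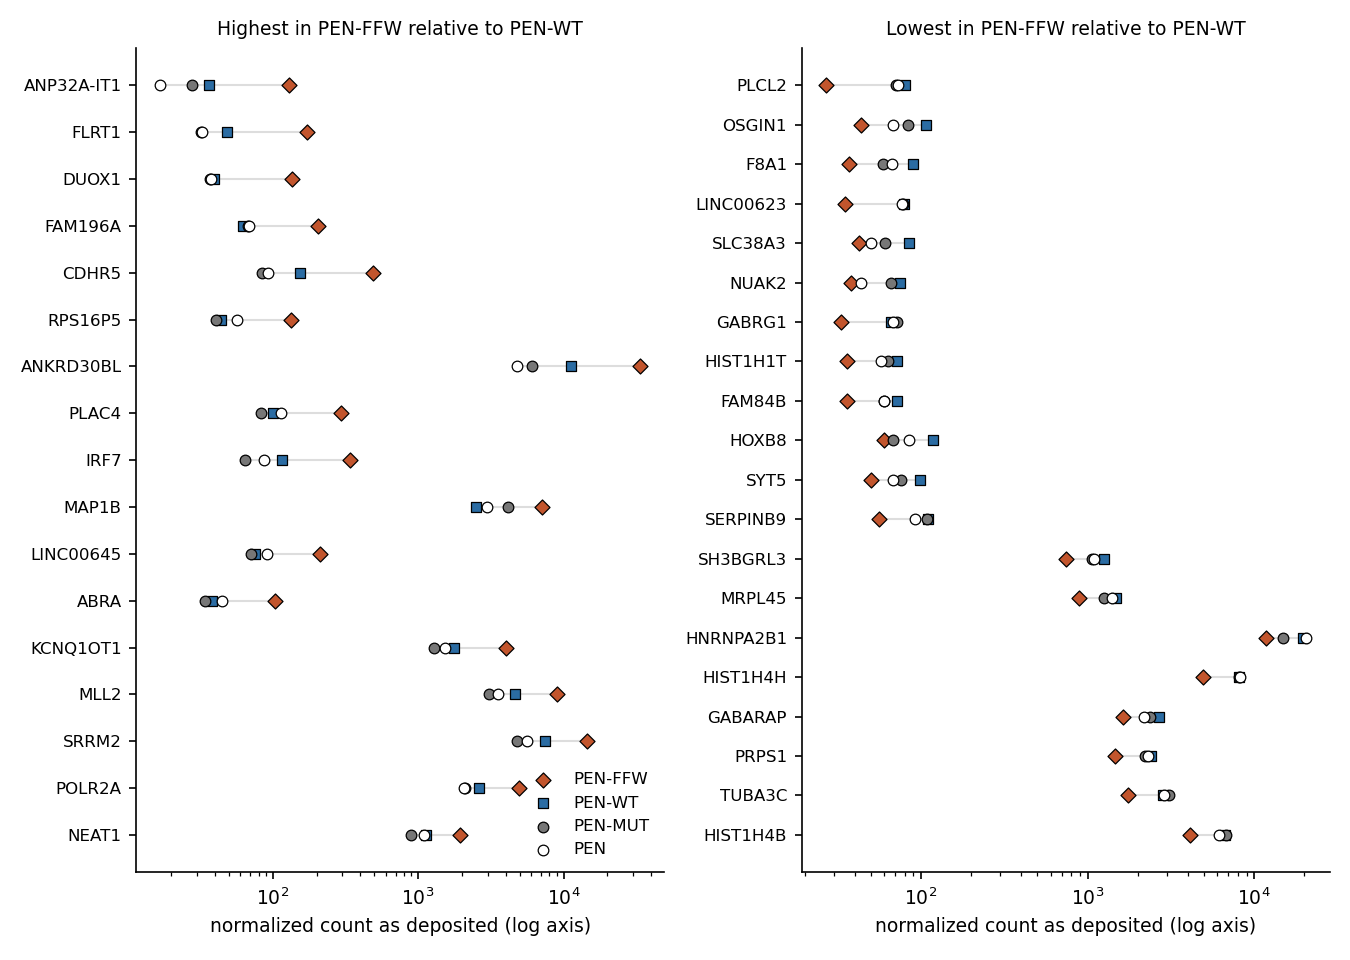
Normalized counts as deposited (horizontal, log axis) in the PEN-FFW, PEN-WT, PEN-MUT and PEN libraries for genes named by size of difference, small RNA and clone names left out: the highest (left) and the lowest (right), over all tested genes and among those with a mean of at least 1000. The PEN-FFW diamond is the rightmost point of every gene on the left, and MAP1B is the gene there with PEN-WT farthest below PEN-MUT.

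Among the genes with a mean of at least 1000, the 8 highest of the same ranking were ANKRD30BL, MAP1B and 6 others. KCNQ1OT1, the long non-coding RNA of the imprinted KCNQ1 locus, had 4047 counts in PEN-FFW, against 1766 in PEN-WT, 1284 in PEN-MUT and 1538 in PEN, a difference of 1.502 [1.43, 1.58]. MLL2, an MLL-family methyltransferase of histone H3 lysine 4, had 8994 counts in PEN-FFW, against 4606 in PEN-WT, 3077 in PEN-MUT and 3559 in PEN, a difference of 1.27 [1.22, 1.32]. The older symbol MLL2 has been used for more than one gene of that family, so no position is given. SRRM2, a spliceosome-associated scaffold of nuclear speckles (chr16:2802627-2822539, plus strand), had 14525 counts in PEN-FFW, against 7508 in PEN-WT, 4822 in PEN-MUT and 5600 in PEN, a difference of 1.26 [1.22, 1.29]. For these 3 genes the order of the libraries was the same, with PEN-FFW highest, PEN-WT next and PEN-MUT lowest.

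POLR2A, the catalytic subunit of RNA polymerase II (chr17:7387685-7417933, plus strand), had 4950 counts in PEN-FFW, against 2621 in PEN-WT, 2089 in PEN-MUT and 2082 in PEN, a difference of 1.22 [1.16, 1.29]. The rest of the polymerase did not share it. Of 12 subunits tested, POLR2A was the 1 that was 1.5-fold higher and 9 lay below the median gene, with POLR2H at -0.19 [-0.28, -0.10]. NEAT1, the RNA on which paraspeckles form, had 1939 counts in PEN-FFW, against 1141 in PEN-WT, 897 in PEN-MUT and 1098 in PEN, a difference of 1.07 [0.97, 1.17].

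Some genes with small RNA or clone names, which the rule for named genes left out, moved as far and are named here because of their values. Whether their reads come from separate transcripts was not tested. MIR663A had 3082 counts in PEN-FFW, against 903 in PEN-WT, 535 in PEN-MUT and 473 in PEN, a difference of 2.08 [1.98, 2.18]. LOC284801 had 11977 counts in PEN-FFW, against 3967 in PEN-WT, 1334 in PEN-MUT and 989 in PEN, a difference of 1.90 [1.85, 1.95]. MIR3687 had 3910 counts in PEN-FFW, against 2321 in PEN-WT, 588 in PEN-MUT and 368 in PEN, a difference of 1.06 [0.99, 1.13]. MIR3648, which lies 192 bases from MIR3687 on chromosome 21, had 11605 counts in PEN-FFW, against 8328 in PEN-WT, 1855 in PEN-MUT and 972 in PEN, a difference of 0.78 [0.75, 0.82]. For MIR3687 and MIR3648 the PEN-WT library was closer to PEN-FFW than to either control peptide.

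The 2 genes at least 2-fold lower in PEN-FFW were PLCL2 and OSGIN1. PLCL2, an inactive phospholipase C-like protein of B-cell signalling, had 26.8 counts in PEN-FFW, against 80.0 in PEN-WT, 71 in PEN-MUT and 73.1 in PEN, a difference of -1.27 [-1.92, -0.67]. OSGIN1, an oxidative stress gene induced by NRF2, had 43.4 counts in PEN-FFW, against 108 in PEN-WT, 84 in PEN-MUT and 68.0 in PEN, a difference of -1.01 [-1.52, -0.52]. PLCL2 was at similar levels in the 3 other libraries, whereas OSGIN1 was highest in PEN-WT. F8A1, a single-exon gene with near-identical copies whose reads cannot be assigned with certainty, had 36.9 counts in PEN-FFW and 90.0 in PEN-WT. LINC00623 had 35.1 counts in PEN-FFW, against 79.2 in PEN-WT, 78 in PEN-MUT and 76.4 in PEN, a difference of -0.87 [-1.45, -0.32].

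The other 8 of the 12 lowest lay between -0.69 and -0.66. They were the glutamine transporter SLC38A3, the kinase NUAK2, the GABA receptor subunit GABRG1, the testis histone HIST1H1T, FAM84B, the homeobox gene HOXB8, the synaptotagmin SYT5 and the granzyme B inhibitor SERPINB9. HOXB8 had 60.01 counts in PEN-FFW, against 119 in PEN-WT, 68 in PEN-MUT and 84.8 in PEN, so PEN-WT was the library that stood apart. SERPINB9 had 56.3 counts in PEN-FFW, against 110.2 in PEN-WT, 109 in PEN-MUT and 91.5 in PEN, so PEN-FFW stood apart. ALB, the gene of serum albumin and the 1 lower member of the liver list, had 83.1 counts in PEN-FFW, against 157 in PEN-WT, 139 in PEN-MUT and 122 in PEN, a difference of -0.61.

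Abundant genes differed less downward than upward. The lowest with a mean of at least 1000 was SH3BGRL3, a small thioredoxin-like protein, with 739 counts in PEN-FFW, against 1261 in PEN-WT, 1067 in PEN-MUT and 1098 in PEN, a difference of -0.47 [-0.59, -0.34]. HNRNPA2B1, an RNA-binding protein of splicing, had 11822 counts in PEN-FFW, against 19604 in PEN-WT, 14804 in PEN-MUT and 20369 in PEN, a difference of -0.42 [-0.45, -0.39]. For HNRNPA2B1 both PEN-FFW and PEN-MUT were low. The others were MRPL45 (mitochondrial ribosome) at -0.44, HIST1H4H (histone H4) at -0.41, GABARAP (autophagy) at -0.41, PRPS1 (nucleotide synthesis) at -0.40, TUBA3C (alpha tubulin) at -0.40 and HIST1H4B (histone H4) at -0.39. TUBA3C and the histone genes have close copies that share sequence, so their separate values are uncertain.

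SALL4, the source of the native sequence in PEN-WT, and RBBP4, the protein which that sequence binds, differed little. SALL4 (chr20:50398870-50419060, minus strand) had 1168 counts in PEN-FFW, against 1291 in PEN-WT, 1359 in PEN-MUT and 1665 in PEN. Its difference was 0.16 [0.05, 0.27], and it was -0.14 on the authors' own scaling. RBBP4 (chr1:33116743-33151812, plus strand) had 5241 counts in PEN-FFW, against 6875 in PEN-WT, 7082 in PEN-MUT and 6773 in PEN, a difference of -0.09 [-0.13, -0.04]. The paralogues SALL1, SALL2 and SALL3 differed by 0.07, 0.03 and 0.02, and their counting intervals held 0. The 15 NuRD genes had a median of -0.04, and none was 1.5-fold apart. The farthest were CHD5 at 0.36 [0.26, 0.45] and GATAD2B at 0.32 [0.16, 0.49]. Of 11 genes reported elsewhere as SALL4 targets, 8 were tested, with a median of 0.01.

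Gene lists were set against the median gene by their own medians. Of 78 lists, 75 had at least 5 tested members; 16 had a median of at least 0.1, 15 had one of at most -0.1, and 44 lay between. The median over all tested genes is 0 by construction, with 50% of genes on each side, 4.49% of them were 1.5-fold higher, and the counting interval lay above 0 for 24.0% of all genes and below 0 for 23.0%. Because the median gene differs by -0.31 on the authors' scaling, 12 of the 16 list medians above 0 lay below 0 there. No list was called particular, since no test of a list was made.

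The lists with the highest medians were the nuclear-retained RNAs and the collagens. Of 6 nuclear-retained RNAs, 5 were above the median gene and 3 were 1.5-fold higher, with a median of 0.57 for PEN-FFW minus PEN-WT and -0.20 for PEN-MUT minus PEN. MALAT1, the abundant RNA of nuclear speckles, had 60477 counts in PEN-FFW, against 48373 in PEN-WT, 38131 in PEN-MUT and 47717 in PEN, a difference of 0.63 [0.61, 0.64]. PVT1, next to MYC, had 431 counts in PEN-FFW and 373 in PEN-WT, a difference of 0.52 [0.33, 0.70]. Among 18 collagens, 17 were above the median gene and 4 were 1.5-fold higher, with a median of 0.42. COL7A1, the collagen of anchoring fibrils, had 779 counts in PEN-FFW, against 539 in PEN-WT, 402 in PEN-MUT and 449 in PEN, a difference of 0.84 [0.69, 0.98]. COL27A1, a fibrillar collagen of cartilage, differed by 0.98 [0.66, 1.30].

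Other surface and matrix families lay on the same side. All 9 laminins tested were above the median gene, with a median of 0.33, and LAMA5, an alpha chain of basement membranes, had 3179 counts in PEN-FFW, against 2062 in PEN-WT, 1700 in PEN-MUT and 1496 in PEN, a difference of 0.93 [0.86, 1.00]. Of 22 plexins and semaphorins, the receptors and ligands of axon guidance, 20 were above the median gene and 3 were 1.5-fold higher, with a median of 0.31. PLXNB3 had 128 counts in PEN-FFW and 60.6 in PEN-WT, a difference of 1.39 [0.98, 1.81], and PLXNA3 had 916 in PEN-FFW and 648 in PEN-WT, a difference of 0.80 [0.67, 0.94]. Of 44 cadherins and protocadherins, 38 were above the median gene and 6 were 1.5-fold higher, with a median of 0.19. Integrins had a smaller median of 0.11 over 15 genes, and ITGB7 was the farthest member at 0.86 [0.50, 1.24]. The PEN-MUT minus PEN medians of these 5 families lay between -0.06 and 0.05. Centred on genes of like GC content and length, the PEN-FFW minus PEN-WT medians were 0.26 for collagens, 0.15 for laminins, 0.11 for plexins and semaphorins, 0.15 for cadherins and protocadherins and 0.02 for integrins.

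Among the lists of chromatin genes, lysine methyltransferases and large remodellers had the highest medians, but not under every centring. Of 20 lysine methyltransferases, 16 were above the median gene and 5 were 1.5-fold higher, with a median of 0.19, which was 0.09 when centred within bins of transcript length and 0.05 within classes of GC content and length. In those classes Polycomb proteins also had 0.05 and acetyltransferases 0.04. After MLL2, the farthest were MLL at 0.70 [0.65, 0.74], MLL4 (an older symbol with the same ambiguity as MLL2) at 0.65 [0.58, 0.71] and MLL3 at 0.62 [0.57, 0.68], all of the family that methylates histone H3 lysine 4. MLL had 6755 counts in PEN-FFW, against 5154 in PEN-WT, 3929 in PEN-MUT and 4130 in PEN. Of 19 large ATP-dependent remodellers, 18 were above the median gene, with a median of 0.17, which was 0.07 within bins of transcript length and 0.12 within classes of GC content and length. SRCAP, which deposits the histone variant H2A.Z, had 5817 counts in PEN-FFW, against 3782 in PEN-WT, 2472 in PEN-MUT and 2690 in PEN, a difference of 0.93 [0.87, 0.98]. EP400, a subunit of the TIP60 complex, differed by 0.68 [0.60, 0.75].

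Lists of other chromatin proteins were near 0 at the median, with single members far from it. Lysine demethylases had a median of 0.06 over 19 genes, and KDM6B, a histone H3 lysine 27 demethylase, had 633 counts in PEN-FFW, against 356 in PEN-WT, 212 in PEN-MUT and 273 in PEN, a difference of 1.14 [0.96, 1.31]. Corepressors had a median of 0.04 over 25 genes, of which 4 were 1.5-fold higher. The corepressor ATN1 had 1047 counts in PEN-FFW, against 585 in PEN-WT, 290 in PEN-MUT and 322 in PEN, a difference of 1.15 [1.01, 1.28], and RERE, its relative, differed by 0.75 [0.65, 0.85]. Acetyltransferases and coactivators had a median of 0.07, with EP300, a histone acetyltransferase, at 0.49 [0.44, 0.55]. DNA methylation enzymes had a median of 0.10 over 11 genes, with TET3 at 0.40 [0.31, 0.48]. Polycomb proteins lay at -0.01 over 25 genes.

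The lists of antisense and intronic transcripts, small nucleolar and Cajal body RNAs, and LINC genes had medians above 0. These were smaller when set against genes of like abundance. The nuclear-retained RNAs, described above, had a median of 0.59 within bins of mean count, against 0.57 as reported. Small nucleolar RNA host genes had a median of 6.6e-06 over 16 genes, with 8 above the median gene and 8 below it. Of 113 antisense and intronic transcripts tested, 88 were above the median gene and 18 were 1.5-fold higher, with a median of 0.21. The strand setting of the authors' counting is not given in the sources used here, so reads of an antisense gene and of its partner cannot be told apart. UCKL1-AS1 had 277 counts in PEN-FFW and 112 in PEN-WT, a difference of 1.61 [1.32, 1.91], and its partner UCKL1 differed by 0.60. Of 119 small nucleolar and Cajal body RNAs, 89 were above the median gene and 10 were 1.5-fold higher. Their median was 0.20 for PEN-FFW minus PEN-WT and -0.22 for PEN-MUT minus PEN. It was -0.04 for PEN-FFW minus PEN and -0.23 for PEN-WT minus PEN, so the list was not above PEN in PEN-FFW. The 43 LINC genes had a median of 0.15. Centred within bins of mean count, the medians were 0.06 for antisense and intronic transcripts, 0.08 for small nucleolar and Cajal body RNAs and 0.06 for LINC genes. By annotated class, 3.36% of 11720 protein-coding genes, 15.7% of 223 long non-coding RNA genes, 30.2% of 106 pseudogenes and 9.84% of 61 small nucleolar RNA genes were 1.5-fold higher. Among genes with a mean count under 200 the shares were 17.1% of protein-coding genes, 21.3% of long non-coding RNA genes and 32.8% of pseudogenes. The share of small nucleolar RNA genes there was 8.70%, below that of protein-coding genes.

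The channels, motors and transporters completed the higher lists. Potassium channels had a median of 0.20 over 24 genes, with KCNJ13, an inward rectifier, at 1.47 [1.04, 1.91], and a median of 0.07 when centred within bins of mean count. The myosins had a median of 0.16 over 20 genes, which was 0.08 within classes of GC content and length, and MYO15B had 1104 counts in PEN-FFW, against 643 in PEN-WT, 488 in PEN-MUT and 519 in PEN. Dyneins had a median of 0.16 over 15 genes, with DNAH1, a heavy chain of ciliary axonemes, at 1.09 [0.89, 1.30]. ABC transporters had a median of 0.12 over 22 genes, led by ABCA7 at 0.77 [0.64, 0.89].

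**Figure D3:**
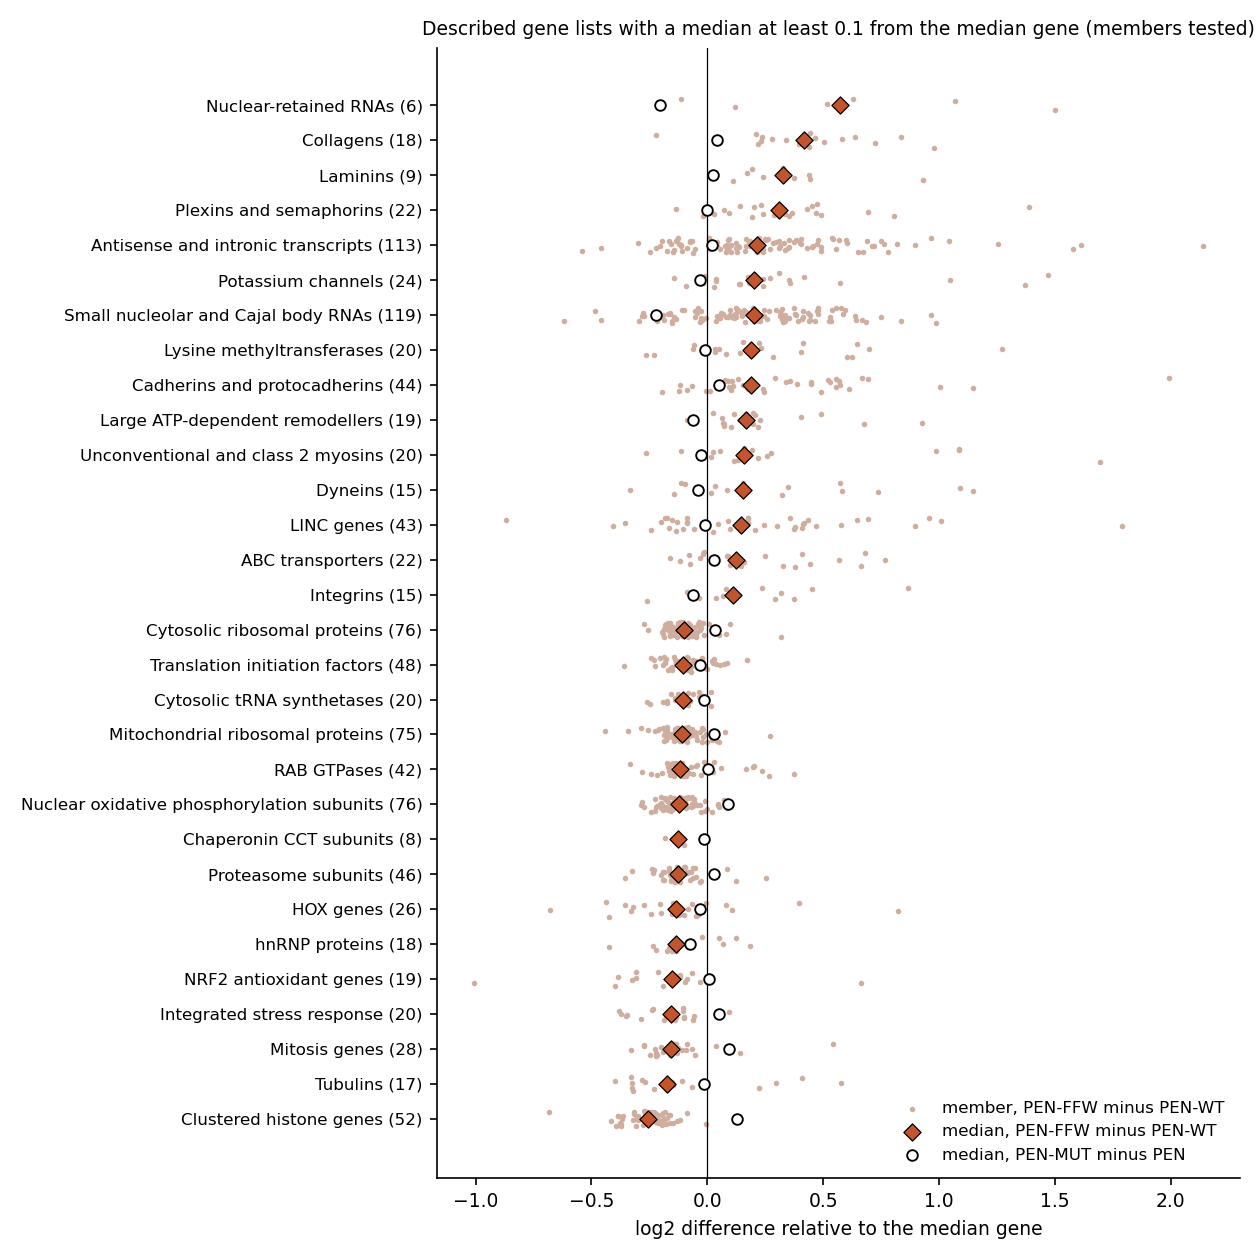
Gene lists described in the text with at least 5 tested members whose median log2 difference PEN-FFW minus PEN-WT, relative to the median gene, was at least 0.1 above or below 0 (diamonds), with the members as small points and the median for PEN-MUT minus PEN as open circles; the number tested is in brackets. All 52 clustered histone genes lie below 0, and on the authors' own scaling, which is lower by 0.31, every median under 0.31 would lie below 0.

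The clustered histone genes formed the list with the lowest median. These genes are transcribed in S phase and most of their messages end in a stem-loop and carry no poly(A) tail. Of 52 tested, none was above the median gene and the counting interval of 47 lay below 0, against 23.0% of all genes, with a median of -0.25 for PEN-FFW minus PEN-WT. The same genes had a median of 0.13 for PEN-MUT minus PEN, with 49 above the median gene of that pair. HIST1H4H had 4898 counts in PEN-FFW, against 8066 in PEN-WT, 8110 in PEN-MUT and 8202 in PEN, a difference of -0.41 [-0.46, -0.37]. HIST1H4B had 4099 counts in PEN-FFW, against 6658 in PEN-WT, 6743 in PEN-MUT and 6137 in PEN. In both, the 3 other libraries were close to each other. The list's annotated transcripts have a median length of 486.5 bases, against 3397 over all genes, and when centred on genes of like length and GC content its median was -0.19. The median of its mean counts was 4921, against 1091 over all genes, and counting intervals are narrower for abundant genes. Their share below 0 is thus not set against genes of like abundance. Centred within bins of mean count, the median of the list was -0.18.

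The promoters of these genes were searched for 3 motifs. To show the matches, the promoters are printed of the 4 farthest histone genes and of the 4 highest abundant genes that have an entry in the table used. In the RefSeq table of promoters (build GRCh38.p14, 250 bases before to 50 after each gene's start), 9847 of the tested genes, 328 of the 565 higher genes and 42 of the 52 histone genes were found. The letters TATAAA, searched on both strands, occurred in 28 of the 42 histone promoters (66.7%), in 8.54% of the higher genes and in 5.07% of all. The letters CCAAT occurred in 36 of the 42 (85.7%), in 27.7% of the higher genes and in 37.1% of all. GGGCGG, the core of a GC box, occurred in 26.2% of the histone promoters, in 59.2% of the higher genes and in 71.5% of all. None of the 3 marked motifs contains another, and a match describes the letters only. In the sequences below, 5′ to 3′ on the strand of the gene, capitals mark these 3 motifs on either strand.
ANKRD30BL (chr2:132161906-132162205, minus strand): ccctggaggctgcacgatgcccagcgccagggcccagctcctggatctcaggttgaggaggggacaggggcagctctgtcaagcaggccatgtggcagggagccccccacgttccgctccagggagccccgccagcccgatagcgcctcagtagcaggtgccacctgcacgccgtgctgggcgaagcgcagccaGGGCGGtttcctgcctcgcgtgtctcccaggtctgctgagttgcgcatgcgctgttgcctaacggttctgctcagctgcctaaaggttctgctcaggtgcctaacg
MAP1B (chr5:72107225-72107524, plus strand): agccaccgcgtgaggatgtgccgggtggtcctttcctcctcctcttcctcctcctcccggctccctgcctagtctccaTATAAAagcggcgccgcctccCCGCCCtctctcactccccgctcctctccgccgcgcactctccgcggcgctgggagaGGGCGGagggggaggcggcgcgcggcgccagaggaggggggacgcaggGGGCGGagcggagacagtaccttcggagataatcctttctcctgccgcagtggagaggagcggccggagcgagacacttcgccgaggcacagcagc
SRRM2 (chr16:2752388-2752687, plus strand): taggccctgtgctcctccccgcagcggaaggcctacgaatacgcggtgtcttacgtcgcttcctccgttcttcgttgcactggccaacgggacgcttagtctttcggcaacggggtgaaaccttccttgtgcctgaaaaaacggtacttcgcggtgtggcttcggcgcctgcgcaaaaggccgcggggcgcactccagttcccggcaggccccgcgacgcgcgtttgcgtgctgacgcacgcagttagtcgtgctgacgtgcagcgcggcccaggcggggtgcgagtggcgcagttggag
POLR2A (chr17:7484116-7484415, plus strand): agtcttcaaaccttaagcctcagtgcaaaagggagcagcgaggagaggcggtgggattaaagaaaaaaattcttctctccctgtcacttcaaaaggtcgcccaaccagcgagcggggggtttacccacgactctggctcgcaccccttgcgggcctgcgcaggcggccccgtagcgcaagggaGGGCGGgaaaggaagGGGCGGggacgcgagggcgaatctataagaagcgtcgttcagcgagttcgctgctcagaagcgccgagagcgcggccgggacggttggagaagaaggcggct
HIST1H1T (chr6:26108086-26108385, minus strand): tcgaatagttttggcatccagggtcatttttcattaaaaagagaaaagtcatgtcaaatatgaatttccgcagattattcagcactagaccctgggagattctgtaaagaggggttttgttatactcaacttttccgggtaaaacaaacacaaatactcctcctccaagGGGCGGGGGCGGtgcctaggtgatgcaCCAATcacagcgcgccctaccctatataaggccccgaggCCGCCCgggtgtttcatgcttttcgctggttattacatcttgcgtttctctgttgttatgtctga
HIST1H4H (chr6:26285485-26285784, minus strand): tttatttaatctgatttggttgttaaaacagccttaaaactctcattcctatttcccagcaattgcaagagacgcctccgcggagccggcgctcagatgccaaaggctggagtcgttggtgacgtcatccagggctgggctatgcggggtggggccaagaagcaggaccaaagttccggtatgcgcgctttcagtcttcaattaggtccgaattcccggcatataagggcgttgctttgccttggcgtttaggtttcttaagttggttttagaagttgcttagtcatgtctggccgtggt
HIST1H2BB (chr6:26043664-26043963, minus strand): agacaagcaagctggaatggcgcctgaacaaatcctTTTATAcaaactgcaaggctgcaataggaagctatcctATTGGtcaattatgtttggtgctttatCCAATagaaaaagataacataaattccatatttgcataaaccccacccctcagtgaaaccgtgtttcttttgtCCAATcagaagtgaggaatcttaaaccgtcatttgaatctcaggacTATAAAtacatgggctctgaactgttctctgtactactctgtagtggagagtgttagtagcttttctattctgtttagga
HIST1H4J (chr6:27823842-27824141, plus strand): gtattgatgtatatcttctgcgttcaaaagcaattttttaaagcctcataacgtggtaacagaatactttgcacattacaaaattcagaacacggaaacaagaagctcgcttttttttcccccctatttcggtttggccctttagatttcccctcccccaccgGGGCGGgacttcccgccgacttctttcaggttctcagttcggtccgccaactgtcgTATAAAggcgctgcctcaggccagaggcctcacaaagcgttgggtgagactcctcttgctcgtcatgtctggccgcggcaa
Among the 4 higher genes, MAP1B holds TATAAA, ANKRD30BL holds 1 match to GGGCGG, POLR2A 2 and MAP1B 3, and SRRM2 holds none of the marked motifs. Among the histone genes, HIST1H2BB holds 2 matches to TATAAA and 3 to CCAAT, and HIST1H4J holds 1 match to TATAAA and 1 to GGGCGG. HIST1H1T holds 1 match to CCAAT and 3 to GGGCGG, and HIST1H4H holds none of the marked motifs. HIST1H2BB had 2175 counts in PEN-FFW, against 3511 in PEN-WT, 3688 in PEN-MUT and 3406 in PEN, a difference of -0.39 [-0.46, -0.31], and HIST1H4J differed by -0.38 [-0.64, -0.11].

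Mitosis genes and tubulins had medians below 0 as well. Of 28 mitosis genes, 25 were below the median gene, with a median of -0.16 for PEN-FFW minus PEN-WT and 0.09 for PEN-MUT minus PEN, and the PEN-FFW minus PEN-WT median was -0.10 within classes of GC content and length. CDC20, an activator of the anaphase-promoting complex, had 5664 counts in PEN-FFW, against 8801 in PEN-WT, 8109 in PEN-MUT and 7734 in PEN, a difference of -0.33 [-0.38, -0.29]. PLK1, a mitotic kinase, and UBE2C, a ubiquitin-conjugating enzyme of mitosis, both differed by -0.27. MKI67, the proliferation antigen with a long transcript, went the other way with 23484 counts in PEN-FFW, against 19913 in PEN-WT, 16108 in PEN-MUT and 16940 in PEN, a difference of 0.54 [0.52, 0.57]. The 29 S phase genes had a median of -0.09, and 25 of them were below the median gene. Tubulins had a median of -0.18 over 17 genes, and kinesins one of 0.01 over 33.

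Most of the stress lists had medians below 0. Of 20 genes of the integrated stress response, the programme of ATF4, 19 were below the median gene, with a median of -0.16. CHAC1, which degrades glutathione, had 526 counts in PEN-FFW, against 847 in PEN-WT, 676 in PEN-MUT and 609 in PEN, a difference of -0.38 [-0.53, -0.23]. ATF3 differed by -0.37 and TRIB3 by -0.35, and in CHAC1, ATF3 and SESN2 the PEN-WT library was the highest of the 4 as deposited. Of 19 NRF2 antioxidant genes, 18 were below the median gene, with a median of -0.15. HMOX1, which breaks down heme, had 4244 counts in PEN-FFW, against 6860 in PEN-WT, 5521 in PEN-MUT and 6147 in PEN, a difference of -0.39 [-0.44, -0.34]. ABCC2, a canalicular export pump, was the exception at 0.66 [0.20, 1.13]. Heat shock chaperones had a median of -0.08, with 19 of 20 below the median gene, and genes of the unfolded protein response had one of 0.04 over 22.

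Lists of the basic machinery had medians slightly below 0, with most of their members on that side. Of 76 nuclear genes of oxidative phosphorylation, 70 were below the median gene, with a median of -0.12 for PEN-FFW minus PEN-WT and 0.09 for PEN-MUT minus PEN. Of 75 mitochondrial ribosomal proteins, 69 were below it, with a median of -0.11, and of 76 cytosolic ribosomal proteins, 71 were below it, with a median of -0.10. Of 46 proteasome subunits, 43 were below it (median -0.13), and all 8 subunits of the chaperonin CCT were (median -0.13). Below it lay 14 of 18 hnRNP proteins (median -0.13), 33 of 42 RAB GTPases (median -0.12), 18 of 20 tRNA synthetases (median -0.11) and 39 of 48 translation initiation factors (median -0.10). None of these lists had a member 1.5-fold apart in either direction. NDUFA4, a small subunit of the respiratory chain, had 5426 counts in PEN-FFW, against 8182 in PEN-WT, 8423 in PEN-MUT and 7670 in PEN, a difference of -0.29 [-0.33, -0.24]. Centred on genes of like GC content and length, the median of the cytosolic ribosomal proteins was -0.03, that of the mitochondrial ones -0.05, and those of the oxidative phosphorylation genes and the proteasome -0.07. Centred within bins of mean count, the median was -0.05 for hnRNP proteins, -0.04 for CCT subunits and tRNA synthetases, -0.06 for initiation factors and -0.03 for cytosolic ribosomal proteins.

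The 44 lists in between, with medians between -0.10 and 0.10, held 25 members that were 1.5-fold higher, counted list by list. NR4A2 and NR4A3, nuclear receptors of the immediate early response, differed by 0.95 [0.70, 1.21] and 0.79 [0.58, 1.00], while JUN, from the same list, lay at -0.42 [-0.59, -0.25] and the list at -0.09. NR4A2 had 273 counts in PEN-FFW, against 175 in PEN-WT, 148 in PEN-MUT and 288 in PEN. As deposited, the PEN library was thus as high as PEN-FFW, while the median gene of PEN-FFW minus PEN lay at -0.28. DUSP4, a phosphatase induced by ERK signalling, had 88.6 counts in PEN-FFW, against 160 in PEN-WT, 176 in PEN-MUT and 234 in PEN, a difference of -0.55 [-0.91, -0.19]. PLIN4, a lipid droplet protein, had 281 counts in PEN-FFW, against 139 in PEN-WT, 79 in PEN-MUT and 88.2 in PEN, a difference of 1.32 [1.05, 1.59], in a list with a median of 0.02. HOX genes, on the lower side with a median of -0.13 over 26, held HOXD9 at 0.82 [0.47, 1.18] and HOXB8 at -0.68. Metallothioneins and keratins had 3 and 1 tested members.

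The difference moved with the abundance, the GC content and the length of the transcript. By decile of mean count, the median difference was 0.24 in the lowest decile, where 23.3% of genes were 1.5-fold higher, and -0.08 in the highest, where 0.318% were. Spearman's correlation over genes was -0.31 with the mean count, 0.19 with GC content and 0.25 with transcript length. For PEN-MUT minus PEN these were -0.01, 0.09 and -0.14. Genes in the top quintile of both GC content and length had a median of 0.32 for PEN-FFW minus PEN-WT, and 19.7% of the 183 were 1.5-fold higher. Short genes of the second GC quintile had the lowest median, -0.10. The part of abundance, GC content, length, depth or RNA quality in the differences was not tested, beyond the recentred values given here and below.

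**Figure D4:**
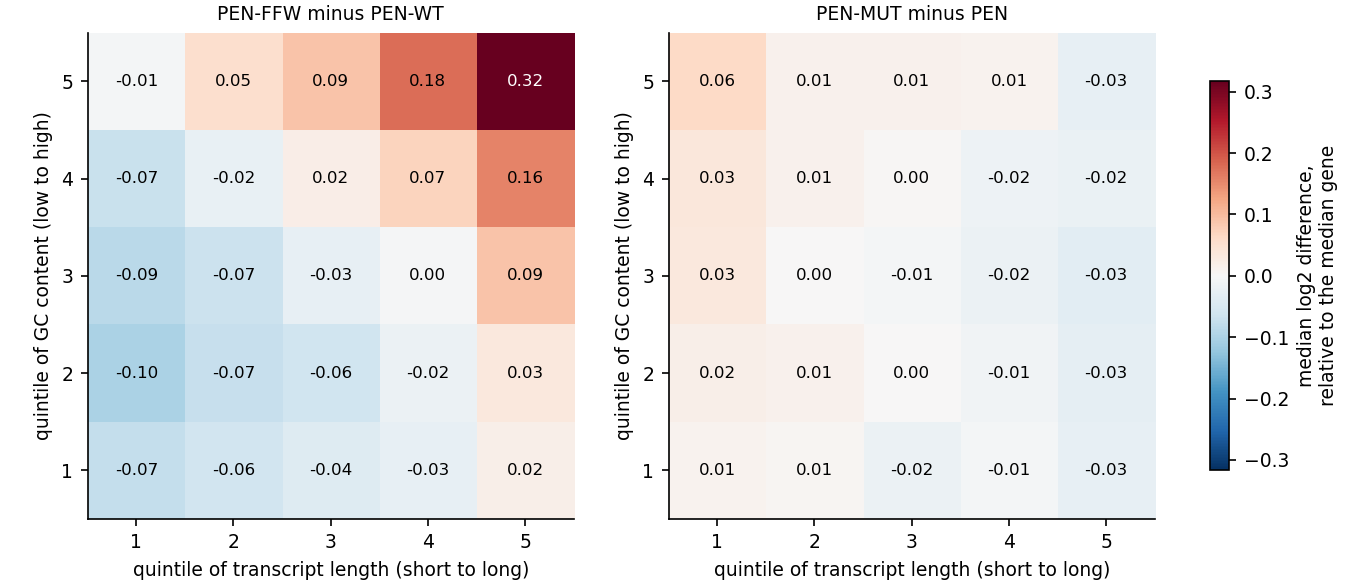
Median log2 difference relative to the median gene in 25 classes of genes, by quintile of transcript GC content (vertical) and of transcript length (horizontal), for PEN-FFW minus PEN-WT (left) and PEN-MUT minus PEN (right). On the left the medians run between -0.10 and 0.32, with the highest among long GC-rich transcripts; on the right they run between -0.03 and 0.06.

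**Figure D5:**
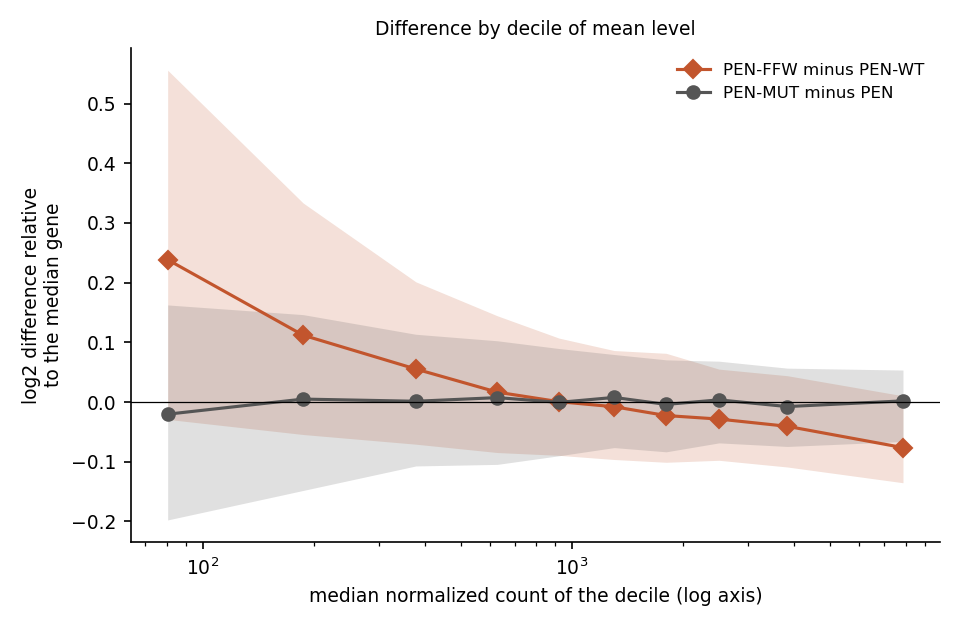
Median (line) and quartiles (band) of the log2 difference relative to the median gene in each decile of mean normalized count (horizontal, log axis), for PEN-FFW minus PEN-WT and PEN-MUT minus PEN. The PEN-FFW minus PEN-WT median runs from 0.24 in the lowest decile to -0.08 in the highest, and the other lies between -0.02 and 0.01.

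Centred on genes of like GC content and length, the nuclear-retained RNAs had a median of 0.59. ANKRD30BL then differed by 1.98, MAP1B by 1.76, SRRM2 by 1.10 and POLR2A by 1.07.

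The identity of the cells was checked by markers. Of 12 hepatocyte and hepatocellular carcinoma markers, 3 passed the threshold on the mean and 7 lay at the table's lowest value, 5, in all 4 libraries, among them HNF4A, APOB, KRT8 and KRT18. AFP, alpha-fetoprotein, had between 7.76 and 11 counts in each library. GPC3, an oncofetal proteoglycan, had 998 counts in PEN-FFW, against 1253 in PEN-WT, 1281 in PEN-MUT and 1250 in PEN. Of 9 markers of leukocytes, endothelium and fibroblasts, 5 lay at the lowest value in all libraries, and DCN, a proteoglycan of fibroblasts, had 1355 counts in PEN-FFW, against 1819 in PEN-WT, 2153 in PEN-MUT and 1856 in PEN. COL1A1, a collagen of fibroblasts, went the other way with 221 counts in PEN-FFW, against 182 in PEN-WT, 156 in PEN-MUT and 127 in PEN, a difference of 0.58 [0.31, 0.85]. COL1A2, its partner chain, was under the threshold with 22.2 counts in PEN-FFW, against 17.9 in PEN-WT, 30 in PEN-MUT and 29.4 in PEN. The summed level of the 12 was 1305 in PEN-FFW, 1638 in PEN-WT, 1640 in PEN-MUT and 1571 in PEN, and that of the 9 was 1921 in PEN-FFW, 2406 in PEN-WT, 2737 in PEN-MUT and 2368 in PEN. Both sums were lowest in PEN-FFW, where the median gene was lower too.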

How the data were processed

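RNA of SNU398 cells was sequenced in 1 library for each of 4 peptides, as paired-end reads. The submitters' processing notes name STAR 2.4.0i, featureCounts 1.5.0-p1 and hg19. The authors deposited log2 values, and the lowest, 2.32, corresponds to a normalized count of 5. With the log undone, every value above it (100%) was a whole multiple (tolerance 0.1 read) of 1 factor per library, 0.923 for PEN-FFW, 0.776 for PEN-WT, 1 for PEN-MUT and 0.840 for PEN. The multiples are the reads on which the counting intervals rest. How the authors normalized, and with which annotation and strand setting they counted, is not given in the sources used here.

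Log2 values of PEN-FFW minus PEN-WT were centred on the median of the genes with a mean of at least 50. Named genes were the 12 highest and 12 lowest, the 8 each way with a mean of at least 1000, at most 4 members per list, SALL4 and RBBP4, leaving out small RNA and clone names; the few outside this rule are said to be so or stand beside a neighbour or a marker. Some genes and 1 list that the rule named are not reported here. The comparison, the lists and the named-gene rule were chosen with earlier results of these data known, and the matching of 2 lists (integrins and tubulins) and the name of the histone list were corrected after the files were read. Positions, lengths and GC content came from GENCODE 44 lifted to GRCh37, the build called hg19 (20326 genes had the same symbol, 1500 an older one and 1884 no match), and promoter letters from RefSeq, build GRCh38.p14. Scripts used Python 3.11.15, numpy 2.4.6, pandas 2.3.3 and scipy 1.17.1 and were tested on simulated data. Alternatives were other scalings, filters, a pseudocount and recentring within bins.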

Additional observations from a re-analysis of the deposited data

How the results depend on the processing

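Each count below is of genes at least 2-fold higher, 2-fold lower, 1.5-fold higher and 1.5-fold lower in PEN-FFW than in PEN-WT, in that order; as reported they were 137, 2, 565 and 18. Without centring, on the authors' scaling, they were 62, 4, 200 and 320. With a trimmed mean of M values (TMM) on the recovered reads they were 122, 3, 526 and 19, and by the total of all genes 149, 1, 611 and 17. A pseudocount of 10 gave 106, 0, 524 and 4. A mean of at least 10 gave 551, 14, 1345 and 99, a mean of at least 200 gave 32, 0, 202 and 0, and no filter gave 885, 22, 1957 and 148. Centring within 20 bins gave 84, 4, 370 and 63 for mean count and 94, 3, 432 and 18 for GC content. Protein-coding genes alone gave 88, 2, 406 and 14. Centring within bins of transcript length gave 109, 1, 479 and 13, and within 25 classes of GC content and length 87, 2, 425 and 12, both chosen after seeing the data. The settings that leave out genes or shrink low ones differ by that construction, and for the rest the cause was not tested. The 40 genes followed were those named by rank, SALL4 and RBBP4, and the other genes named were not followed. Those of the 40 that were called kept their sign under each scaling, pseudocount and recentring that gave them a value. SALL4, which was not called, lay below 0 without centring. Of the 16 list medians above 0, 12 changed sign without centring, as did none of the 15 below 0, and none of these did under the other scalings, the pseudocount or the recentring. Medians nearer 0 did change sign: NuRD genes lay at -0.04 as reported and 0.01 within bins of mean count, and lysine demethylases at 0.06 as reported and -0.01 within classes of GC content and length. No paired analysis was possible because each peptide had 1 library, and for the same reason no library could be left out. Depth limits the low genes, whose counting intervals had a median half-width of 0.45 at a mean of 50 to 100.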
